A study of Mus musculus with 6 samples.

Results

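The Ifi200 genes and Aim2 belong to the PYHIN family, and 9 of them (Ifi203, Ifi204, Ifi205, Ifi207, Ifi209, Ifi211, Ifi213, Mndal and Aim2) were followed here among the 52550 genes of the count table. They were found by gene symbol, and the list was drawn up because of their difference between MSR1 KO and MSR1 WT macrophages in these same libraries. Their values in that contrast are therefore given as a description and without a test. The RNA came from primary macrophages grown from C57BL/6 mouse bone marrow with 25 ng/ml M-CSF over 7 days and then kept for 48 h in a transwell that shared medium with bone marrow mesenchymal stromal cells (BMSCs). MSR1 is a macrophage scavenger receptor, and the question of the study was how its loss alters macrophages that face BMSCs. There were 3 libraries from MSR1 KO and 3 from MSR1 WT macrophages, all of them co-cultured, and both genotypes had the C57BL/6 background. No tissue restriction of the knockout is given in the sources used here. The study describes its 3 libraries of a genotype as biological replicates, but neither it nor the labels say whether they came from separate mice. The p-values below therefore measure the spread between these libraries, which may be partly technical.

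The libraries held between 36143518 and 47417448 counts on genes. Levels are given as CPM, counts per 1000000 counts after trimmed-mean (TMM) scaling, and differences as the log2 fold change of MSR1 KO over MSR1 WT with its standard error (SE) from edgeR's quasi-likelihood fit over 16402 genes with enough counts. Over all 16402 genes the log2 fold changes had a median of -0.0023. Msr1 itself read 58.9, 45.8 and 43.0 CPM in MSR1 KO and 182.8, 193.0 and 223.0 CPM in MSR1 WT (log2 fold change -2.02, SE 0.135, edgeR adjusted p = 0.00124), and it stayed past the threshold when any of the 6 libraries was left out. The 10 macrophage markers summed to 25216 to 26467 CPM in MSR1 KO and 25724 to 28604 CPM in MSR1 WT, ranges that overlap, with 1 marker higher and 1 lower.

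PYHIN proteins are named for a pyrin domain, which binds other pyrin domains, and a HIN domain, which binds double-stranded DNA. In mice the family is expanded into a tight gene cluster, and many of its genes are known to be induced by interferon, which acts through the STAT and IRF factors. AIM2 senses DNA in the cytosol and assembles an inflammasome with the adaptor ASC (Pycard) and caspase-1, while p204, the product of Ifi204, has been linked to DNA sensing through STING and p200 proteins more broadly to cell growth and differentiation.

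All 9 members lie on chromosome 1 of GRCm38, between positions 173350879 and 174031810, a stretch of 680.9 kb. Their promoters are shown because most of them carry the same short word close to the start of the gene. The word searched was GAAA, any 2 bases and GAAA again, on either strand, the core of an interferon-stimulated response element (ISRE), which is bound by complexes of STAT and IRF factors. RefSeq promoters (build GRCm38.p6, 250 bases before to 50 bases after the start) were found for 8 members, and 6 of these 8 held the word (Ifi203, Ifi205, Ifi207, Ifi211, Ifi213 and Mndal), compared to 3.99% of the 27025 genes with a promoter. The 50 bases around the match, or around the closest word where there was none, are printed 5′ to 3′ on the strand of the gene, with the word in capitals.
Ifi213, chr1:173599316-173599365, minus strand: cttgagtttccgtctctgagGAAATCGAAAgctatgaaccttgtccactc
Ifi207, chr1:173741821-173741870, minus strand: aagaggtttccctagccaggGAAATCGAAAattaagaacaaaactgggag
Ifi211, chr1:173913054-173913103, minus strand: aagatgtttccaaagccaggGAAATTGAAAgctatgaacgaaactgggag
Ifi205, chr1:174031860-174031909, minus strand: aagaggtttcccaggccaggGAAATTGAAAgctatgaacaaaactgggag
Mndal, chr1:173880194-173880243, minus strand: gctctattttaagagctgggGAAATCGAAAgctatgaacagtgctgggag
Ifi203, chr1:173942498-173942547, minus strand: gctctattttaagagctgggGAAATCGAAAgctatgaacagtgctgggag
Ifi209, chr1:173630760-173630809, plus strand: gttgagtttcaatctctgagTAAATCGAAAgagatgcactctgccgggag
Aim2, chr1:173420533-173420582, plus strand: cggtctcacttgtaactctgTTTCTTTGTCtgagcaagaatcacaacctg

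The windows of Mndal and Ifi203 were the same in all 50 bases. Ifi207 carried the word with its first base 41 bases before the start of the gene, Ifi211 at 37, Mndal at 36, Ifi203 at 35 and Ifi213 at 73, while in Ifi205 it lay at 134. Ifi205 held a second match on the opposite strand inside the transcribed part. Mndal and Ifi203 each had 2 RefSeq promoters. The promoter of Mndal that is not printed held a match on the opposite strand, 54 bases before its start, and that of Ifi203 held none. The closest word of Ifi209 differed from the motif by G1T and that of Aim2, read on the opposite strand, by A3C, with positions counted from 1 at the 5′ end of the motif. A word with at most 1 differing letter upstream of the start is common, at 31.4% of 32851 promoters. A match is a description of the letters in the window and does not show that a factor bound there. Neither the same word with 3 bases between its ends (2.75% of promoters) nor TTCNNNGAA, the core of the gamma-activated site (8.3% of promoters), was present in the promoter of any member.

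Whole promoters fell into sets of near copies. Over the aligned bases, Ifi213 was 98.9% identical to Ifi206 and to Ifi208, which are PYHIN genes outside the list of 9. Ifi209 was 96.0% identical to Ifi214, Mndal 97.6% to Ifi203, and Ifi211 94.0% to Ifi205 and 88.4% to Ifi207. Aim2 reached at most 61.3% with any of them. Promoters that were near copies did not always go with like differences between genotypes. Ifi209 and Ifi214 had log2 fold changes of 0.86 and 1.55, and Ifi207 and Ifi211 of 0.50 and 1.26, whereas Ifi211 and Ifi205 had 1.26 and 1.499, Mndal and Ifi203 had 0.87 and 0.77 and Ifi213, Ifi206 and Ifi208 had 1.31, 1.41 and 1.59.

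Compared to MSR1 WT macrophages, MSR1 KO macrophages held higher mean levels of all 9 members. In 8 of the 9 each MSR1 KO library was above each MSR1 WT library, and Aim2 was the exception. The same separation was seen for 12.1% of all genes tested, and since the members were chosen on this contrast nothing is read from the count. The median log2 fold change over the 9 was 0.87, with a range from 0.44 to 1.499. Summed over the 9 genes, the share of all counts was 0.339, 0.322 and 0.324% in MSR1 KO replicates 1 to 3 and 0.171, 0.152 and 0.232% in MSR1 WT replicates 1 to 3. In bulk RNA, more RNA per cell and a larger share of cells that express these genes cannot be told apart.

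Among the DNA sensors, Aim2 read 50.6, 38.5 and 45.3 CPM in MSR1 KO libraries 1 to 3 and 33.1, 27.3 and 38.7 CPM in MSR1 WT libraries 1 to 3. The groups overlapped narrowly, since the lowest MSR1 KO library lay just under the highest MSR1 WT library, and the log2 fold change was 0.44 (SE 0.147). Ifi204 read 810.3, 800.2 and 778.1 CPM in MSR1 KO and 364.4, 307.5 and 520.5 CPM in MSR1 WT. It differed by a log2 fold change of 1.00 (SE 0.169), and the highest MSR1 WT library was well under the lowest MSR1 KO library. The difference of Ifi204 was the larger of the 2.

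The largest log2 fold change in the list was that of Ifi205, which encodes p205. It read 85.01, 82.75 and 83.27 CPM in MSR1 KO and 25.7, 21.04 and 42.1 CPM in MSR1 WT (log2 fold change 1.499, SE 0.225). Its 3 MSR1 KO libraries were nearly equal, while the highest MSR1 WT library was at 2.0 times the lowest. Ifi213 followed, with 249.97, 238.4 and 211.7 CPM in MSR1 KO against 80.5, 60.4 and 141.0 CPM in MSR1 WT (log2 fold change 1.31, SE 0.269). Ifi211 read 416.4, 406.8 and 381.6 CPM in MSR1 KO and 156.4, 116.3 and 229.3 CPM in MSR1 WT (log2 fold change 1.26, SE 0.211). In these genes the 2 genotypes did not overlap and MSR1 WT replicate 3 was the closest of its group to MSR1 KO.

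The remaining members differed by less. Mndal, which is named after the human myeloid nuclear differentiation antigen, read 262.5, 240.5 and 258.1 CPM in MSR1 KO and 119.1, 112.1 and 184.4 CPM in MSR1 WT (log2 fold change 0.87, SE 0.175). Ifi209 read 342.6, 316.6 and 370.2 CPM in MSR1 KO and 186.3, 158.4 and 222.5 CPM in MSR1 WT (log2 fold change 0.86, SE 0.124). Neither gene overlapped between genotypes. Ifi203 read 382.7, 330.6 and 351.3 CPM in MSR1 KO and 188.9, 159.5 and 273.9 CPM in MSR1 WT (log2 fold change 0.77, SE 0.179). Ifi207 read 809.5, 788.1 and 821.3 CPM in MSR1 KO and 543.3, 527.2 and 642.9 CPM in MSR1 WT (log2 fold change 0.50, SE 0.0846). Ifi207 and Aim2 had the 2 smallest log2 fold changes, and the log2 fold change of Ifi207 had the smallest SE of the 9.

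**Figure D1:**
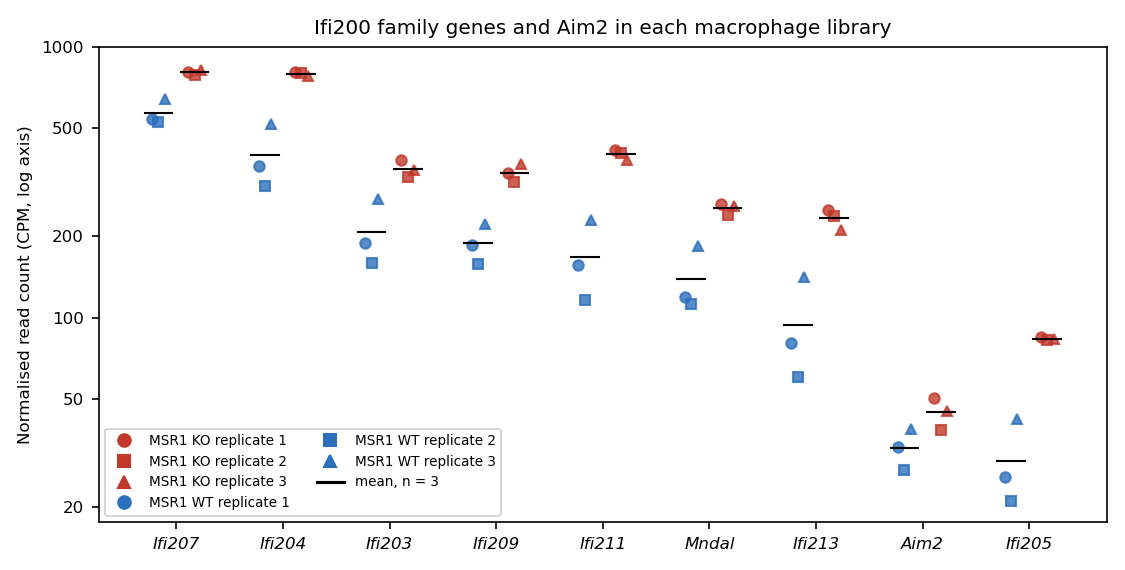
Normalised read count (CPM, log axis) of the 9 members in each library, ordered by the mean in MSR1 WT; red symbols are MSR1 KO, blue symbols MSR1 WT, the shape gives the replicate and black lines are means of 3 libraries. Red lies above blue in 8 genes, whereas in Aim2 the lowest red symbol (38.5 CPM) meets the highest blue one (38.7 CPM).

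Levels of different genes were compared per kb of exon (CPM per kb of the union of exons in GENCODE M21). In MSR1 WT macrophages Ifi207 was the most abundant member at 166.9 ± 18.3 CPM per kb (SD, n = 3), a level above that of 98.7% of the genes tested. Ifi204 followed at 111.6 ± 31.0 and Ifi211 at 93.75 ± 32.1 CPM per kb, with library ranges that overlapped each other. Ifi209 (53.3 ± 9.06), Mndal (38.2 ± 10.98) and Ifi203 (30.9 ± 8.86) formed a middle tier, in which each gene overlapped the next. The lowest 3 were Ifi213 at 13.7 ± 6.13, Aim2 at 9.44 ± 1.63 and Ifi205 at 7.09 ± 2.65 CPM per kb, and again each overlapped the next. Ifi205, the member with the largest log2 fold change, thus had the lowest mean per kb of exon in MSR1 WT, though it overlapped Aim2. By the span of the gene it stood above Mndal and Aim2.

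In MSR1 KO macrophages Ifi207 (235.6 ± 4.91), Ifi211 (225.0 ± 10.1) and Ifi204 (223.6 ± 4.62 CPM per kb) came to overlapping levels. Below them Ifi209, Mndal, Ifi203, Ifi213, Ifi205 and Aim2 followed without overlap between neighbours. Ifi205 (20.03 ± 0.283 CPM per kb) lay above Aim2 (12.8 ± 1.73), so that these 2 genes stood in the opposite order to that in MSR1 WT, where they overlapped. The order in MSR1 WT depended on the length used, since 5 members changed place with the longest transcript and 7 with the span of the gene. By all 3 lengths Ifi207 and Ifi204 took the first 2 places and Aim2 was among the last 2.

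**Figure D2:**
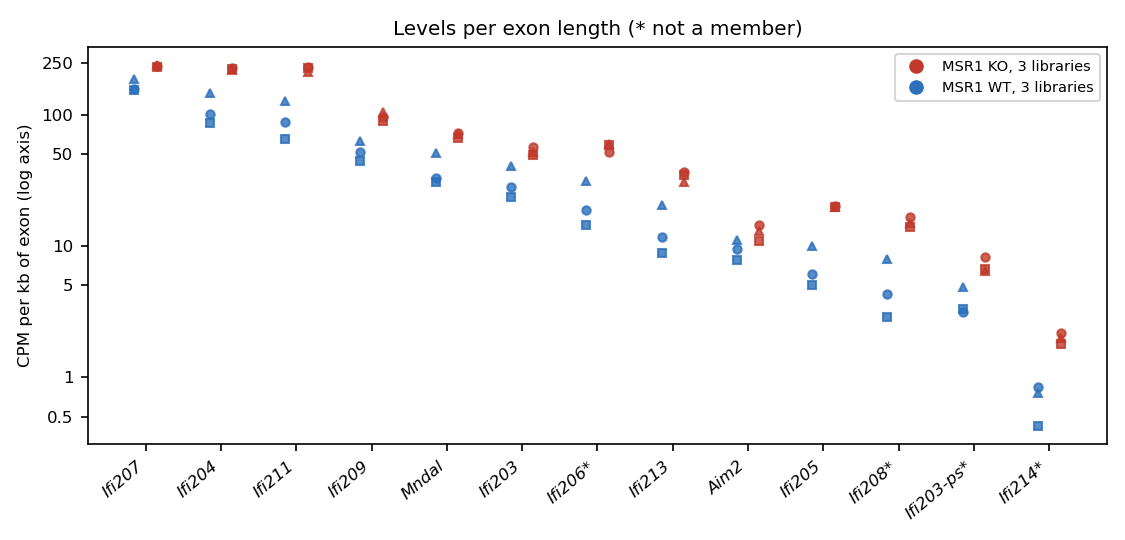
Level per kb of exon (CPM per kb, log axis) of the 9 members and 4 other PYHIN genes (asterisks), red for MSR1 KO and blue for MSR1 WT, with circles, squares and triangles for replicates 1, 2 and 3. Ifi207, Ifi204 and Ifi211 lie on top in both genotypes, and the red symbols of these 3 genes come to similar levels.

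The members did not only differ between genotypes, they also moved together from library to library within MSR1 WT, which the choice of members did not use directly. MSR1 WT replicate 3 was the highest and replicate 2 the lowest of their genotype in 9 of 9 members, an order found in 17.4% of all genes tested. With the other tested PYHIN genes it was 11 of 13, the exceptions being Ifi214 and Ifi203-ps. In MSR1 KO replicate 1 was the highest in 7 of 9 and replicate 2 the lowest in 6 of 9, compared to 31.2% and 33.9% of all genes. The spread was wider in MSR1 WT for 9 of 9 members, with a median SD of log2 CPM of 0.392 in MSR1 WT and 0.0671 in MSR1 KO, whereas among all genes 45.6% were wider in MSR1 WT and the medians were 0.162 and 0.177. The summed level of the 9 members differed 1.05-fold between the highest and lowest MSR1 KO library and 1.54-fold between those of MSR1 WT. The 9 members and the other PYHIN genes share libraries and a locus, so they are not independent points.

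Ifi213 varied most in MSR1 WT, with library deviations of -0.13, -0.55 and 0.68 from the genotype mean on the log2 scale. Ifi207 varied least, with -0.07, -0.11 and 0.18. In MSR1 KO the deviations of Ifi205 were 0.02, -0.02 and -0.01. Aim2 was the member with the widest spread in MSR1 KO, where it deviated by 0.18, -0.21 and 0.02.

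**Figure D3:**
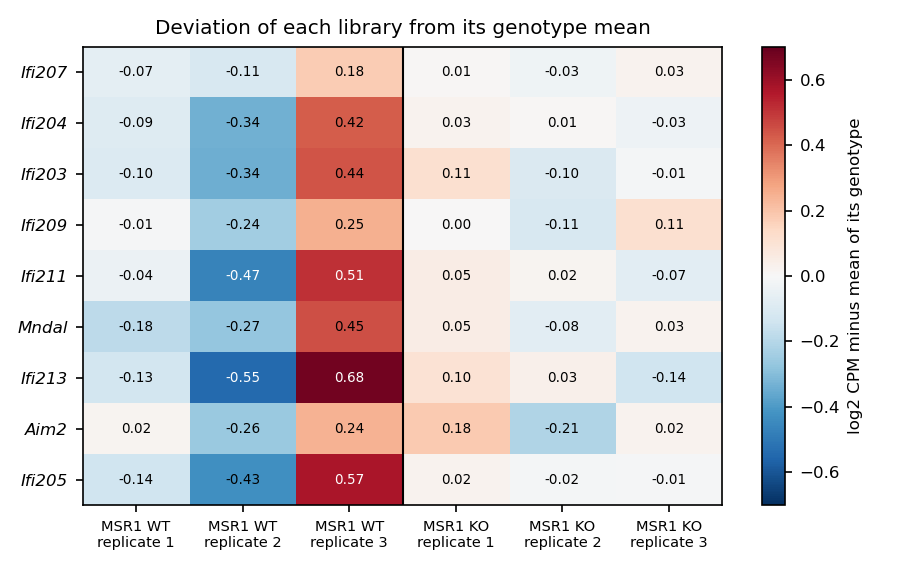
Deviation of each library from the mean of its genotype (log2 CPM) for the 9 members, with MSR1 WT libraries on the left and MSR1 KO libraries on the right of the black line. MSR1 WT replicate 3 is above and replicate 2 below the mean in every row, and most MSR1 KO cells are near 0.

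Because the spread lay mostly in MSR1 WT, the size of the difference moved with 2 libraries. For each member the log2 fold change was lowest without MSR1 WT replicate 2 and highest without MSR1 WT replicate 3, for example 1.07 and 1.73 for Ifi213, 1.30 and 1.84 for Ifi205 and 0.32 and 0.57 for Aim2. The median over the 9 ran from 0.75 to 1.13. With MSR1 WT replicate 3 left out, each MSR1 KO library was above each remaining MSR1 WT library in 9 of 9 members, as against 17.8% of all genes. With MSR1 KO replicate 2 left out it was also 9 (17.5% of all genes), and with any other library left out it was 8. MSR1 WT replicate 3 was the highest of its genotype in every member, so dropping it could only widen the gap. The members were chosen on this contrast, so nothing is read from these counts.

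The genes outside the cluster that most resembled the members from library to library were Zmat1, Treml2, Slfn5, Rtp4 and Fuom. The measure was the root mean square difference, over the 6 libraries, between a gene's deviations from its genotype means and the median deviation of the 9 members, and it was 0.0401 for Zmat1 and 0.0518 for Fuom compared to a median of 0.263 over 13601 genes. Slfn5, a Schlafen family gene, read 599.3, 512.3 and 559.0 CPM in MSR1 KO and 313.9, 271.5 and 467.0 CPM in MSR1 WT (log2 fold change 0.67, edgeR adjusted p = 0.082). Rtp4, an interferon-inducible gene, had a log2 fold change of 0.93 (edgeR adjusted p = 0.0299), and Treml2, a receptor of the TREM family, one of 1.15 (edgeR adjusted p = 0.0136). Leaving out libraries in turn, Rtp4 was past the threshold in 1 of 6 fits, the one without MSR1 WT replicate 3, and Treml2 in 4 of 6, the exceptions being replicate 1 of either genotype. Fuom, the fucose mutarotase gene, had a log2 fold change of 0.07 (edgeR adjusted p = 0.909), so a gene could follow the members within genotypes with close to no difference between them. The other 4 tested PYHIN genes came later in the order of likeness, with Ifi203-ps at place 186, Ifi206 at 195, Ifi208 at 1837 and Ifi214 at 4999. By the same measure Ifi203-ps (0.127) and Ifi206 (0.128) were still closer to the median than the members Aim2 (0.132), Ifi207 (0.143) and Ifi213 (0.146). Ifi208 (0.201) and Ifi214 (0.243) were further from it than any member.

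The cluster holds 5 further PYHIN genes in the count table, and 4 had enough counts to be tested. All 4 rose in MSR1 KO, compared to 2.25% of all genes that rose and 2.66% that fell. They share the libraries and the cluster with the members, which were chosen on this contrast. Each also shares some transcript sequence with a member, and the promoters of Ifi206, Ifi208 and Ifi214 are near copies of those of members. The 4 are therefore not independent of that choice, and nothing is read from their comparison with all genes. Of the 4, 0 fell by edgeR, at an unadjusted p under 0.05 or by DESeq2. Ifi208 read 87.0, 72.8 and 78.9 CPM in MSR1 KO and 22.5, 15.2 and 41.5 CPM in MSR1 WT (log2 fold change 1.59, edgeR adjusted p = 0.0305). Ifi214 had a log2 fold change of 1.55 (edgeR adjusted p = 0.0183), Ifi206 of 1.41 (edgeR adjusted p = 0.0237) and the pseudogene Ifi203-ps of 0.91 (edgeR adjusted p = 0.0368). In none of the 4 did the genotypes overlap. These calls rested on the full set of libraries: all 4 were lost when either MSR1 KO or MSR1 WT replicate 1 was left out, 1 was kept with MSR1 KO replicate 2 or 3 dropped, 2 with MSR1 WT replicate 2 dropped and 4 with MSR1 WT replicate 3 dropped. The promoters of Ifi206, Ifi208 and Ifi214 held the ISRE-type word as well, and that of Ifi202b did not. Ifi202b, which lies between Ifi203 and Ifi205, had 3, 0 and 2 counts in MSR1 KO and 0 in each MSR1 WT library, where a count of 0 allows up to 0.0727, 0.0632 and 0.0726 CPM. Such limits cover counting error only.

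Near copies can share reads. Of the 100-base words in the transcripts of Ifi211, 56.9% were also present in another PYHIN gene, 37.2% in Ifi205 and 19.6% in Ifi204. The share was 16.9% for Ifi209, all of it with Ifi214, 15.0% for Ifi205, 10.7% for Ifi204 and at most 5.9% for Mndal, Ifi213, Ifi203 and Ifi207. Aim2 shared none. How reads that matched several genes were counted is not given in the sources used here, and the values of Ifi211 above all are uncertain for that reason. Ifi211 lies within the span of Mndal, on the same strand, but their exons share 0 bases. Exons of Mndal and Ifi203 overlap by 37 bases, and those of Mndal and the pseudogene Gm38050 by 118.

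The difference between genotypes was next compared with that of genes around the cluster. Within 1 Mb of the outermost members, 14 other genes were tested. Of these 0 rose and 2 fell by edgeR, compared to 2.25% and 2.66% of all genes, with a median log2 fold change of 0.05. At an unadjusted p under 0.05 the counts were 1 and 3, and DESeq2 called 1 higher and 2 lower. The nearest tested gene on the side of Aim2 was Dusp23, a phosphatase gene 717.9 kb away (log2 fold change -0.02), followed by Slamf8 at 760.3 kb (0.34). On the side of Ifi205 Fh1, the fumarate hydratase gene, lay 1568.6 kb away (-0.11). Slamf9, a SLAM family receptor gene, read 40.9, 59.4 and 36.5 CPM in MSR1 KO and 19.3, 12.1 and 27.7 CPM in MSR1 WT, with no overlap, and its log2 fold change of 1.21 did not pass (edgeR adjusted p = 0.0568). The 2 genes that fell were Kcnj10 (log2 fold change -0.88, edgeR adjusted p = 0.0162) and Vsig8 (-2.48, edgeR adjusted p = 0.0246), and these 3 genes were named after their values were seen. Kcnj10 and Vsig8 were each lost in 3 of the 6 fits that left out a library, both of them when replicate 1 of either genotype was dropped, Kcnj10 also with MSR1 WT replicate 2 dropped and Vsig8 with MSR1 KO replicate 3 dropped. One of the 14, Gm18752, lies inside the cluster, and its few counts (36, 14 and 37 in MSR1 KO and 0, 5 and 23 in MSR1 WT) overlapped between genotypes (edgeR adjusted p = 0.428); it too was named after its values were seen. The cluster is thus flanked by long stretches without a tested gene.

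**Figure D4:**
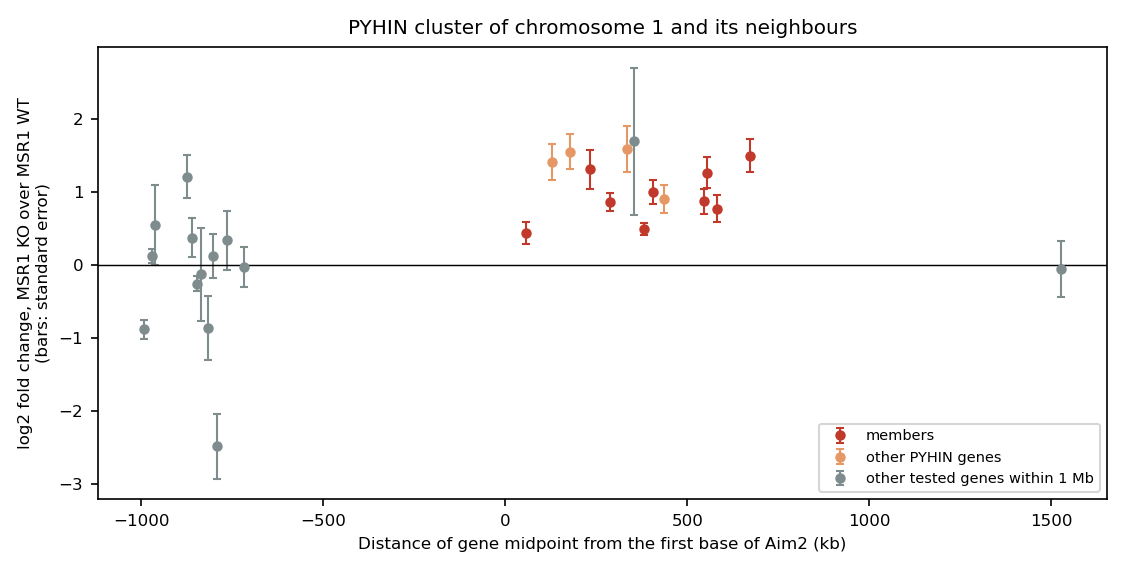
Log2 fold change of MSR1 KO over MSR1 WT (bars are SE) against the distance of each gene's midpoint from the first base of Aim2 (kb), with members in red, other PYHIN genes in orange and other tested genes within 1 Mb of the cluster in grey. Members and other PYHIN genes all lie above 0, from 0.44 to 1.59, and the grey genes on both sides range from -2.48 (Vsig8) to 1.21 (Slamf9), while Gm18752, the grey gene inside the cluster, has a long error bar.

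The inflammasome list held partners and substrates of AIM2 together with sensors and regulators of other inflammasomes, such as Nlrp3 and Nlrc4. All 20 of its genes were tested. By edgeR 4 rose and 0 fell, compared to 2.25% and 2.66% of all genes, with a median log2 fold change of 0.22. At an unadjusted p under 0.05 the counts were 7 and 1, while DESeq2 called 6 and 1. No share of all genes at the unadjusted threshold was worked out for any list, so the unadjusted counts are a description only. Il18bp, which encodes the secreted inhibitor of interleukin-18, rose by 1.21 on the log2 scale (edgeR adjusted p = 0.0377), from 27.3, 33.9 and 42.9 CPM in MSR1 WT to 77.9, 109.2 and 53.9 CPM in MSR1 KO. Casp4, the caspase that senses cytosolic lipopolysaccharide, rose by 0.76 (edgeR adjusted p = 0.0321), Il18, an inflammasome substrate, by 0.71 (edgeR adjusted p = 0.0267), and Gsdmd, the pore-forming substrate, by 0.51 (edgeR adjusted p = 0.0318). The adaptor gene Pycard (0.18, edgeR adjusted p = 0.474), Casp1 (0.52, edgeR adjusted p = 0.0555) and Il1b (0.59, edgeR adjusted p = 0.401) did not pass. The most abundant genes of the list, Txnip and Ninj1, had log2 fold changes of 0.03 and -0.06. All 4 calls were lost when replicate 1 or 2 of either genotype was dropped and with the replicate number as a block, and Il18 did not pass in any of the 6 fits that left out a library.

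Of 27 cytosolic DNA sensing genes, all tested, 4 rose and 0 fell by edgeR, compared to 2.25% and 2.66% of all genes. The median log2 fold change was 0.07. At an unadjusted p under 0.05 the counts were 7 and 0, as they were by DESeq2. Zbp1, a sensor of Z-form nucleic acid, rose by 1.63 (edgeR adjusted p = 0.0256), from 50.8, 37.8 and 78.2 CPM in MSR1 WT to 172.0, 223.9 and 120.1 CPM in MSR1 KO. Samhd1, a dNTP hydrolase, and Tlr9, the endosomal receptor for unmethylated DNA, each rose by 0.78 (edgeR adjusted p = 0.0354 for Samhd1 and 0.0256 for Tlr9). The STING gene Tmem173 rose by 0.52 (edgeR adjusted p = 0.0235). The cGAS gene Mb21d1 (0.27, edgeR adjusted p = 0.609) and Irf3 (0.09, edgeR adjusted p = 0.778), the factor activated by STING, did not pass, and neither did Unc93b1, the most abundant gene of the list (0.28, edgeR adjusted p = 0.0518). All 4 calls were lost with replicate 1 or 2 of either genotype dropped and with the replicate block, and with MSR1 KO replicate 1 dropped Trex1, a DNA exonuclease gene, passed instead.

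Genes of interferon receptor signaling were examined as the pathway that is known to induce the family. The ligand genes were at or near 0: Ifnb1 had 8, 6 and 0 counts in MSR1 KO and 0, 0 and 4 in MSR1 WT, and the 5 Ifna genes, Ifnab, Ifnl2 and Ifnl3 were listed at 0 in every library. The receptor genes Ifnar1 (log2 fold change -0.09, edgeR adjusted p = 0.522) and Ifnar2 (0.24, edgeR adjusted p = 0.0723) did not pass. Of 23 tested genes in the list of 34, 8 rose and 0 fell by edgeR, compared to 2.25% and 2.66% of all genes. The median log2 fold change was 0.34. At an unadjusted p under 0.05 the counts were 14 and 1, while DESeq2 called 14 and 0.

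Several STAT and IRF genes were among those that rose, whereas Irf1 (1.02, edgeR adjusted p = 0.073), Stat3 (0.21, edgeR adjusted p = 0.314) and Irf8 (0.10, edgeR adjusted p = 0.48) did not pass. Stat2 rose by 1.27 (edgeR adjusted p = 0.0193), with 276.4, 297.4 and 225.2 CPM in MSR1 KO and 96.9, 86.5 and 148.9 CPM in MSR1 WT. Irf7 rose by 1.35 (edgeR adjusted p = 0.0253), with 343.0, 370.9 and 373.2 CPM against 132.5, 91.5 and 201.7 CPM. In MSR1 WT both genes had the order of the PYHIN members, with replicate 3 highest and replicate 2 lowest. Irf9, the partner of STAT2, rose by 0.48 (edgeR adjusted p = 0.0353). Socs1, a feedback inhibitor, rose by 1.36 (edgeR adjusted p = 0.0449) and Isg15, a ubiquitin-like modifier, by 1.35 (edgeR adjusted p = 0.0142), and Irf2 and Irf5 were also among the 8. Dropping MSR1 KO replicate 1 left 1 call (Isg15), MSR1 KO replicate 2 left 3, MSR1 WT replicate 1 left 0 and MSR1 WT replicate 2 left 2, and the replicate block also left 2.

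**Figure D5:**
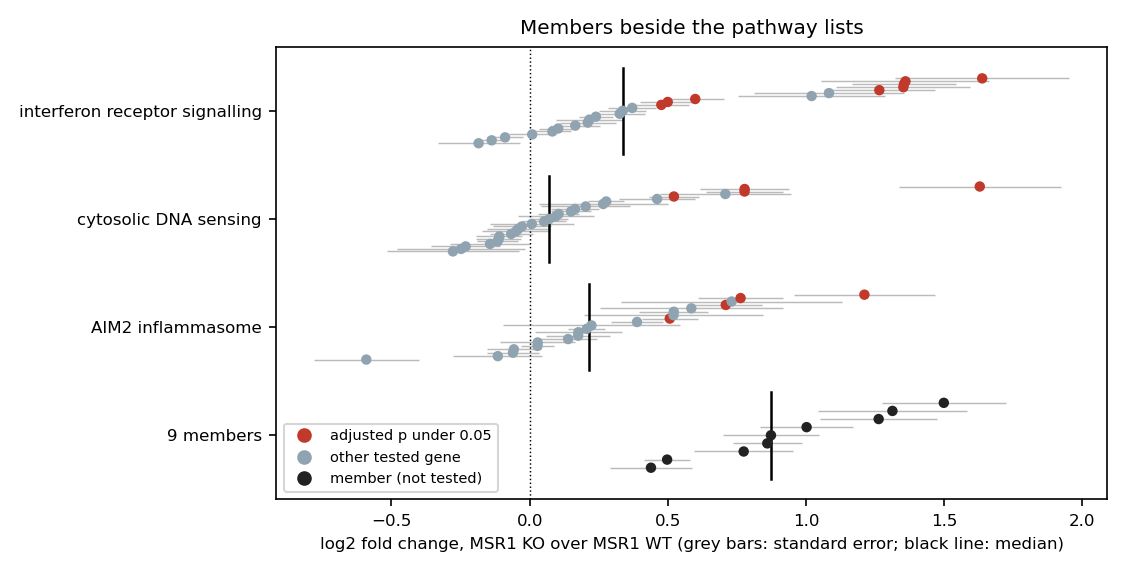
Log2 fold change of MSR1 KO over MSR1 WT (grey bars are SE, black lines medians) for the 9 members, shown in black because they were not tested, and for the tested genes of 3 pathway lists, in red where the edgeR adjusted p was under 0.05. The median is 0.87 for the members and 0.34, 0.07 and 0.22 for interferon receptor signaling, cytosolic DNA sensing and the inflammasome list (AIM2 inflammasome on the axis).

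Markers of other cells moved with the genotype in some lists. The 5 monocyte markers summed to 411.0 to 576.6 CPM in MSR1 KO and 317.6 to 391.4 CPM in MSR1 WT, with 3 of 5 higher in MSR1 KO, among them Plac8 and Ly6c2. The 6 plasmacytoid dendritic cell markers summed to 476.5 to 526.5 CPM against 280.2 to 383.4 CPM, with 1 higher, the interferon-inducible Bst2, whereas Klk1 was at 0 and Siglech at 0.268 and 0.458 CPM on average in MSR1 KO and MSR1 WT. The 7 conventional dendritic cell markers summed to 19.4 to 28.5 CPM against 78.9 to 146.4 CPM, with 1 lower (Itgax, 19.6 against 111.1 CPM on average). Xcr1 and Ccr7 stood higher in each MSR1 KO library at means of 0.736 against 0.177 CPM and 0.776 against 0.136 CPM, without passing (edgeR adjusted p = 0.0596 and 0.18), and Clec9a overlapped at 0.778 against 0.225 CPM (edgeR adjusted p = 0.362). The 10 stromal markers summed to 1125 to 1472 CPM against 1466 to 1880 CPM, with 3 lower. The 7 B cell markers summed to 195.6 to 260.4 CPM against 133.5 to 174.0 CPM (1 lower), mostly from Ighm, and the 8 T and NK cell markers to 131.5 to 186.3 CPM against 97.2 to 158.0 CPM (2 higher). Sums of the 9 neutrophil markers overlapped between genotypes, at 456.7 to 747.5 CPM and 304.9 to 522.4 CPM, and those of the 6 erythroid markers were at most 0.807 CPM, with Hbb-bs and Hbb-bt at 0. The part of these cells in the levels of the members was not tested.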

How the data were processed

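RNA was sequenced by the authors from 3 MSR1 KO and 3 MSR1 WT macrophage libraries, grouped by the genotype and number in the sample titles. The deposited table gives raw read counts per gene, which were used, beside columns of normalised signal (counts divided by size factors, as deposited by the authors) and the authors' own log2 fold changes and p-values, which were not used. The submitters' notes name fastp 0.17.1, HISAT2 2.1.0, DESeq2 1.18.1 and R 3.4.3, whereas the study's methods name TopHat; the counting program, strand setting and genome build are not given in the sources used here. All 49035 identifiers found in GENCODE M21 (GRCm38), of 52550, had the same start and end there. The kit made mRNA libraries amplified by PCR without molecular identifiers.

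Counts were filtered (filterByExpr), TMM-scaled and tested in edgeR 4.0.16 (R 4.3.3) by the quasi-likelihood test of MSR1 KO against MSR1 WT, with Benjamini-Hochberg adjustment over 16402 genes and a threshold of 0.05. The SE is the log2 fold change divided by the root of F. CPM used TMM library sizes, and log2 CPM a prior count of 2. DESeq2 1.42.0, other scalings and filters, a replicate block and leaving out each library were alternatives. The fits were tested on simulated counts. Libraries of a genotype differed by more than sampling noise. Promoters were aligned with Biopython 1.88. The members, gene lists and tests were chosen with earlier results of these data known. Named were the members, every other PYHIN gene, core partners, the 5 largest changes past the threshold and 2 most abundant genes of each pathway list, the nearest tested neighbours and the 5 genes most like the members. A few genes that this rule names are not reported here.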

Additional observations from a re-analysis of the deposited data

How the results depend on the processing

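The log2 fold changes of the 9 members kept their direction, and moved by less than the spread between libraries, under all 12 alternatives tried. Counts past the threshold depended on the test and on single libraries. Genes higher and lower in MSR1 KO numbered 369 and 436, against 720 and 848 by DESeq2, 237 and 288 without a filter on low counts, 589 and 828 by the study's definition (fold change above 1.5 and unadjusted p under 0.05), and 59 and 78 with the replicate number as a block. Leaving out a library gave 18 to 407 and 53 to 372. The numbers share no animal or batch in the labels, and deviations of same-numbered libraries had correlations of -0.0261, 0.0187 and -0.0048, so the block was not taken as pairing. With the block the higher counts were 0 for the inflammasome, 0 for DNA sensing, 2 for interferon signaling and 2 for the other PYHIN genes, and the neighbours had 0 lower. Leaving out a library gave 0 to 4, 0 to 4, 0 to 8 and 0 to 4 in these lists, and 0 to 1 higher and 0 to 2 lower among the neighbours. DESeq2 called 7 DNA sensing and 14 interferon signaling genes higher and 1 inflammasome gene lower, as did the study's definition for the last (1). Among the neighbours 1 was higher by DESeq2, by the study's definition, with at least 10 counts in every library, and with a window of 5 Mb, where 4 were lower. The order of levels per length changed for 7 members with the gene span and 5 with the longest transcript. The median share of words held by other PYHIN genes was 5.9% for words of 100 bases, 17.7% for 50 and 1.6% for 150. No member held the wider motif or the TTCNNNGAA motif, each a count of 0 against 6. The motif TTCNNNGAA, the separation of the libraries with 1 left out and the alternatives for the other PYHIN genes were added after seeing the data. The spread between 3 libraries a genotype limits the precision, and sequence shared between copies limits what the counts of Ifi211 show.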
